A study of Homo sapiens with 9 samples.

Results

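Transcripts of 10 secreted signalling proteins were followed in A375P, an established human melanoma line that carries a mutant RAF kinase. The 10 genes were the chemokines CXCL8, CXCL1 and CCL2, the cytokines IL1B, IL6, LIF, IL24 and CSF1, and the vascular growth factors VEGFA and VEGFC. They were given as a list of names and not by a threshold on their values, but the list was chosen with earlier results of these data known. The cells had been exposed to the solvent DMSO, to 1 µM of the MEK inhibitor PD184352 or to 0.4 µM of the RAF inhibitor PLX4720, for 2, 6 or 24 h, in medium with serum. Of the 10 genes, 8 had a row on the exon array that names 1 gene, among 17047 such genes in all. CXCL1 and IL24 had only rows shared with another gene and are not analysed here. The deposited table held 9 columns, 1 per treatment at each time, called arrays below. The design text mentions triplicates, and the sources used here do not say whether a column averages them. The model is 1 cultured line without stromal or immune cells, and RNA was measured, not secreted protein.

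Chemokines are small secreted proteins that attract leukocytes, and CXCL8 and CXCL1 act on neutrophils while CCL2 acts on monocytes. IL6 and LIF signal through the shared receptor chain IL6ST to STAT3, and CSF1 supports the survival and growth of macrophages. VEGFA drives blood vessel growth, and VEGFC mainly that of lymphatic vessels. Melanoma cells are known to make several of these factors themselves, and several of these genes are known targets of the transcription factors AP-1 and NF-κB.

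Levels are given as log2(intensity + 1), and a change is a difference of such levels, a scale on which the change of a dim gene reads too small. Median intensities ran from 98.96 to 102.4. The brightest 1% of rows began at 1681 to 1754 with DMSO and at 1550 to 1654 with inhibitor. Quantile normalization, which gives all arrays the same set of values, was run as an alternative. After it the change with inhibitor at 24 h was −0.94 for VEGFA, 0.79 for CSF1, 1.63 for CCL2 and −0.11 for LIF. Without it these changes were −0.97, 0.70, 1.63 and −0.12. The part of the difference in the changes below was not tested apart from this alternative. A gene was held too dim to read if its mean over the 9 arrays was under 6.21, the 25th percentile of gene means, or if its highest array was under 6.86. The latter bound is the 95th percentile of the means of 261 olfactory receptor genes, which were taken as silent in these cells.

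By that rule 4 of the 8 genes could be read and 4 could not. CSF1 was the brightest, with a mean of 8.68 (80.1st percentile of gene means), followed by VEGFA at 8.38 (73.8th percentile), LIF at 7.55 (54.1st percentile) and CCL2 at 6.82 (36.8th percentile). All 9 arrays of CSF1, VEGFA and LIF lay above the olfactory bound, but only 2 arrays of CCL2 did, both with inhibitor at 24 h. CXCL8, with a mean of 6.20, fell just under the filter, and the DMSO 24 h array was the only array in which it passed the olfactory bound. VEGFC at 6.00, IL1B at 5.68 and IL6 at 5.56 stayed under that bound on all 9 arrays. Levels of different genes are not compared further, since each row has its own probes.

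**Figure D1:**
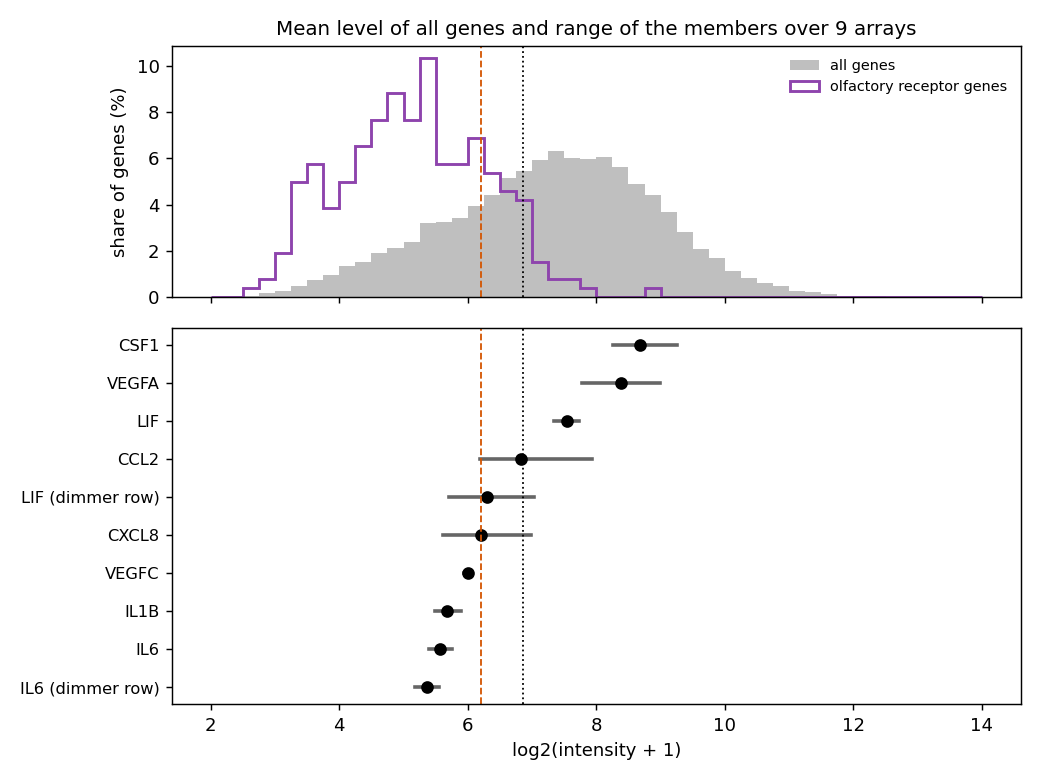
The upper panel plots the share of genes (%) by mean log2(intensity + 1) for all 17047 genes (grey) and for 261 olfactory receptor genes (purple outline); the lower panel gives the mean (dot) and the lowest to highest array (bar) of each of the 10 rows of 8 genes. The dashed line is the filter at 6.21 and the dotted line the olfactory bound at 6.86; VEGFC, IL1B and both rows of IL6 lie wholly to the left of both lines.

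VEGFA was lower with both inhibitors at every time, and the gap to DMSO was widest at 24 h. With DMSO, VEGFA stood at 8.78, 8.99 and 8.78 at 2, 6 and 24 h. The PD184352 arrays read 8.29, 8.24 and 7.78 in the same order, and the PLX4720 arrays 8.37, 8.33 and 7.85. All 6 inhibitor arrays thus lay below all 3 DMSO arrays, an order shared by 5.23% of the genes tested. The change, as the mean of both inhibitor arrays minus the DMSO array of the same time, was −0.45 at 2 h (SE 0.09, adjusted p = 0.157), −0.70 at 6 h (SE 0.09, adjusted p = 0.00233) and −0.97 at 24 h (SE 0.09, adjusted p = 3.1e-05). VEGFA therefore passed the limma test at 6 h and 24 h and not at 2 h. On the linear scale, the intensity at 24 h was 439 with DMSO, 219 with PD184352 and 229 with PLX4720.

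In these tests the spread comes from the difference between both compounds at the same time, with 1 DMSO array as control, so the p-values do not measure the spread between cultures. The shares of all 12785 genes called lower were 0.0704% at 2 h, 2.74% at 6 h and 19.2% at 24 h, and the shares called higher were 0.0156%, 0.548% and 12.5%. Among all genes tested, the change of VEGFA was the 66th lowest at 2 h, the 131st lowest at 6 h and the 383rd lowest at 24 h. The change of VEGFA at 2 h passed with the 3 DMSO arrays taken as 1 group (−0.52, adjusted p = 0.0322). It also passed when either inhibitor array of 24 h was left out, PD184352 or PLX4720 (−0.45 for each). In the other alternatives it did not pass, among them those without the PD184352 (−0.41) or the PLX4720 (−0.49) array of 2 h.

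CXCL8, also called interleukin 8, had the lowest change at 2 h of the 8 genes with a row. It read 6.79, 6.81 and 6.98 on the DMSO arrays at 2, 6 and 24 h, 6.17, 5.62 and 5.71 with PD184352, and 6.17, 5.70 and 5.84 with PLX4720. All 6 inhibitor arrays lay below all 3 DMSO arrays, as for 4.16% of all 17047 genes. Since its mean was under the filter, CXCL8 was not tested in the main fit. With a pseudocount of 16 in place of 1, or the mean of all rows of a gene, 5 listed genes were tested. The 1 gene called at 2 h in each was none of CCL2, CSF1, VEGFA and LIF, and it is not identified here. CXCL8 lay nearest under the filter, but its arrays at 2 h were all under the olfactory bound. Its 3 DMSO arrays lay above the filter and its 6 inhibitor arrays under it. A pass of the filter would thus rest on the DMSO arrays, in which CXCL8 was highest. The values of CXCL8 given here are from the fit without a filter on dim genes. There the change was −0.62 at 2 h (SE 0.09, adjusted p = 0.124), which did not pass. CXCL8 fell by 1.15 (SE 0.09, adjusted p = 0.00131) at 6 h and by 1.21 (SE 0.09, adjusted p = 0.000116) at 24 h. In that fit the shares of genes called lower were 0.00587% at 2 h, 1.26% at 6 h and 13.3% at 24 h, and the change of CXCL8 was the 39th lowest of 17047 at 2 h, the 30th lowest at 6 h and the 233rd lowest at 24 h. The levels with inhibitor, 5.62 to 6.17, lie where olfactory receptor genes also read, so how much CXCL8 transcript was left cannot be read from them. At 2 h and 6 h the DMSO array was under the olfactory bound too. At 24 h CXCL8 was, as measured, at least 1.09-fold lower with inhibitor when set against that bound (−0.12 on the log2 scale). Limits of this kind, here and below, are distances from measured levels to the bound and have no error of their own. For CXCL8 the limit is close in size to the SE of its change (0.09).

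The promoter windows of CXCL8 and IL6 are shown because both genes are textbook targets of AP-1 and NF-κB, while only CXCL8 neared a readable level here. The sequences are RefSeq's on build GRCh38.p14, from 250 bases before to 50 bases after the annotated start, CXCL8 at chr4:73740319-73740618 and IL6 at chr7:22726950-22727249, both on the plus strand. Capitals mark matches to AP-1 (TGANTCA), the NF-κB consensus, a shorter NF-κB core (GGAANTTCC), C/EBP (TTGCNNAA) and the TATA box (TATAAA), searched on both strands.
CXCL8: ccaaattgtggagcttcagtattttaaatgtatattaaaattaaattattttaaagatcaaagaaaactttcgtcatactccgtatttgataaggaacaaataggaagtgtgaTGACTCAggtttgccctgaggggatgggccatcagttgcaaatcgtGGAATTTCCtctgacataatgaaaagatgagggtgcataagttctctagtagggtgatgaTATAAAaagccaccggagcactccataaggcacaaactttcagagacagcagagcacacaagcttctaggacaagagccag
IL6: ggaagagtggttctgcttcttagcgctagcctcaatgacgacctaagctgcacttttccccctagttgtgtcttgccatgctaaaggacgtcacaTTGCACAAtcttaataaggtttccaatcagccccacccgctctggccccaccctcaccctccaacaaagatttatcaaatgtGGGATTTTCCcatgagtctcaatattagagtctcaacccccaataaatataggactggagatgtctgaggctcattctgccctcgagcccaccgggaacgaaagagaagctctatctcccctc

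In the CXCL8 window an AP-1 match began 137 bases before the start, a core NF-κB match 91 bases before it and a TATA box 31 bases before it. The IL6 window held a C/EBP match 155 bases before the start and an NF-κB consensus match 73 bases before it, and no AP-1 match in these letters. Of all 35116 windows in the table, 7.71% held the AP-1 motif, 11.3% the NF-κB consensus, 0.965% the NF-κB core, 10.5% the C/EBP motif and 11.5% the TATA box. The core was added after the CXCL8 window had been read, and it can overlap the consensus. A match is a description of the letters and does not show that a factor binds.

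LIF, a cytokine of the IL6 family, had 2 rows that did not move alike. The brighter row, which the rule selects, stood at 7.49, 7.71 and 7.55 on the DMSO arrays at 2, 6 and 24 h, at 7.69, 7.37 and 7.33 with PD184352, and at 7.55, 7.72 and 7.53 with PLX4720. The inhibitor arrays overlapped the DMSO arrays, and the changes of 0.13 at 2 h, −0.16 at 6 h and −0.12 at 24 h (SE 0.14 each) did not pass, with adjusted p = 0.869, 0.689 and 0.615. The dimmer row stood at 6.70, 7.03 and 6.63 with DMSO, at 6.22, 5.95 and 5.71 with PD184352, and at 6.33, 6.05 and 6.07 with PLX4720. On this row all 6 inhibitor arrays lay below all 3 DMSO arrays, an order shared by 5.23% of the genes tested.

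Put in place of the brighter row, a choice made after seeing the data, the dimmer LIF row gave −0.42 at 2 h (SE 0.13, adjusted p = 0.487), −1.03 at 6 h (adjusted p = 0.00238) and −0.74 at 24 h (adjusted p = 0.00192). It thus passed at 6 h and 24 h. The mean of this row over the 9 arrays, 6.30, lay just above the filter at 6.21. Its inhibitor arrays at 6 h and 24 h, 5.71 to 6.07, lay under that filter, and its DMSO arrays lay above it. The row thus entered the tests with the help of the DMSO arrays, in which it was highest. Since it was also chosen for its fall, these p-values cannot decide whether LIF fell. The DMSO 6 h array was the only array on which this row passed the olfactory bound. At 6 h the row was thus, as measured, at least 1.13-fold lower with inhibitor (−0.18 on the log2 scale, with an SE of the change of 0.13). At 24 h no size can be given. Its levels followed those of VEGFA (r = 0.93) and CXCL8 (r = 0.92) over the 9 arrays, while the brighter row followed them less closely (r = 0.46 and 0.31). These correlations are descriptions over arrays that share the same treatments. The platform table names LIF for both rows and the sources used here do not say which part of the gene each covers, so the direction for LIF is not settled by these data.

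**Figure D2:**
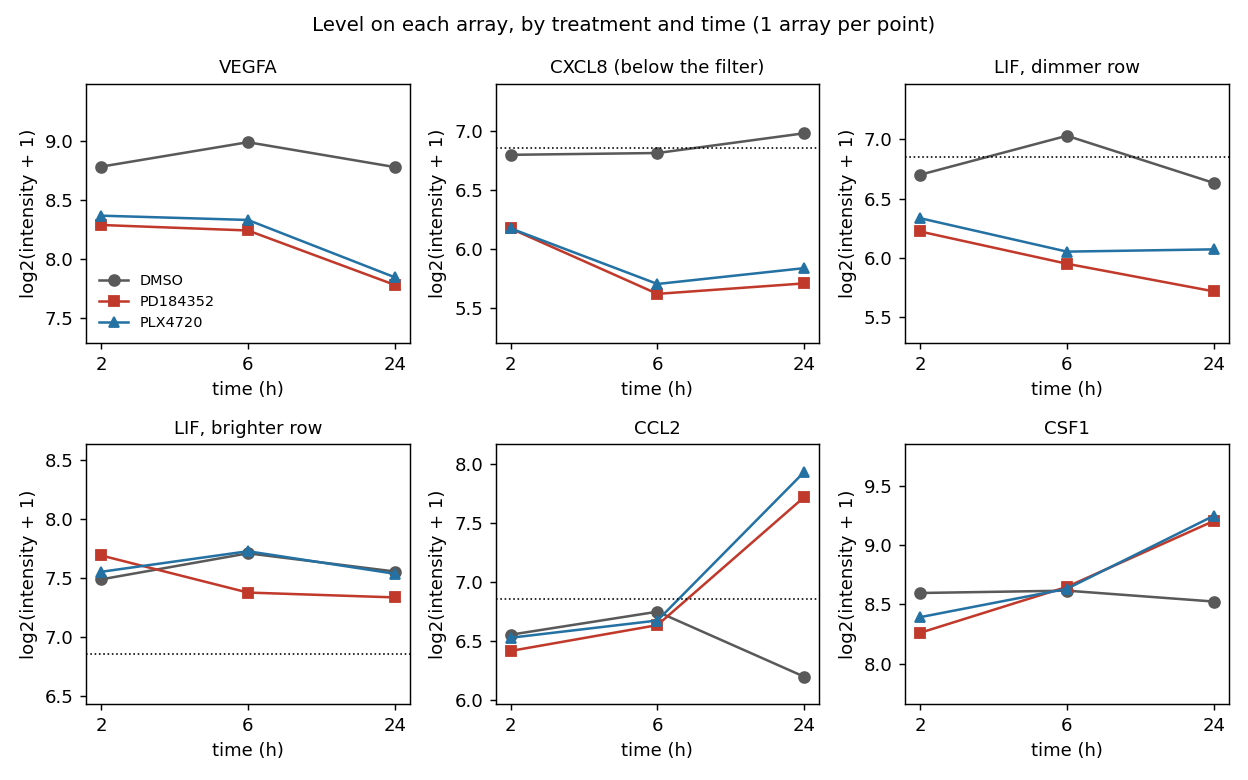
Each panel plots log2(intensity + 1) on each array against time (h) for DMSO (grey circles), PD184352 (red squares) and PLX4720 (blue triangles), 1 array per point, on y axes of equal span; the dotted line is the olfactory bound at 6.86 where it falls in the panel. VEGFA, CXCL8 and the dimmer row of LIF lie below DMSO at every time, whereas CCL2 and CSF1 part from DMSO at 24 h, to 7.93 and 9.25 with PLX4720.

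CCL2 and CSF1, a pair of factors that act on monocytes and macrophages, rose with both inhibitors at 24 h. CCL2 read 6.55, 6.75 and 6.20 on the DMSO arrays at 2, 6 and 24 h. With PD184352 it read 6.41, 6.63 and 7.72, and with PLX4720 6.53, 6.67 and 7.93. At 2 h and 6 h the inhibitor arrays lay slightly under DMSO, and at 24 h both lay above every other array. The change was −0.08 at 2 h (SE 0.11, adjusted p = 0.896), −0.09 at 6 h (SE 0.11, adjusted p = 0.761) and 1.63 at 24 h as measured (SE 0.11, adjusted p = 5.3e-06). Since the DMSO 24 h array was under the olfactory bound, the size can be read only as a limit: against that bound, CCL2 was at least 1.96-fold higher with inhibitor (0.97 on the log2 scale).

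CCL2 counted as readable only through the pair of arrays in which it was high. It was below the olfactory bound on all DMSO arrays and on the inhibitor arrays of 2 h and 6 h, so its changes at those times cannot be read, and it was lowest on the DMSO 24 h array that serves as control at that time. With the 3 DMSO arrays taken as 1 group, the change at 24 h as measured was 1.33 (adjusted p = 3.6e-05). It was 1.35 and 1.45 when the DMSO 2 h or the DMSO 6 h array was left out of that group.

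CSF1 had been somewhat lower with inhibitor at 2 h before it was higher at 24 h. It stood at 8.60, 8.62 and 8.52 with DMSO at 2, 6 and 24 h, at 8.26, 8.65 and 9.21 with PD184352, and at 8.39, 8.63 and 9.25 with PLX4720. The 3 DMSO arrays lay within 0.09 of each other. The change was −0.27 at 2 h (SE 0.09, adjusted p = 0.513), 0.02 at 6 h (SE 0.09, adjusted p = 0.939) and 0.70 at 24 h (SE 0.09, adjusted p = 0.000236). Only the rise at 24 h passed. At that time the intensity was 161% of the DMSO array's with PD184352 and 166% with PLX4720.

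The other genes that could not be read, VEGFC, IL1B and IL6, varied less than CXCL8. VEGFC lay between 5.94 and 6.07 over the 9 arrays, IL1B between 5.49 and 5.90, IL6 between 5.39 and 5.75 on its brighter row and between 5.18 and 5.56 on its dimmer row. In the fit without a filter the changes at 24 h were −0.05 for VEGFC (adjusted p = 0.770), 0.03 for IL1B (adjusted p = 0.916) and −0.15 for IL6 (adjusted p = 0.378). At these levels neither presence nor loss of the transcripts can be read.

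Counted over the 10 genes, limma called 0 at 2 h, 1 at 6 h (VEGFA, lower) and 3 at 24 h (VEGFA lower, CCL2 and CSF1 higher), with 4 genes tested. Over all genes tested, the shares called in either direction were 0.086%, 3.29% and 31.6%. At 2 h, CSF1 and VEGFA had an unadjusted p below 0.05. CCL2 and CSF1 changed differently at different times by limma's F-test (adjusted p = 0.000212 and 0.00187), which called 14.9% of genes. For CCL2 the change at 24 h as measured was 1.71 above that at 2 h, and for CSF1 0.98 above it. VEGFA, whose change at 24 h was 0.51 on the log2 scale below that at 2 h, did not pass (−0.51, adjusted p = 0.0519). It passed with the filter at 50% (adjusted p = 0.0344), a pseudocount of 16 (adjusted p = 0.0489) and quantile normalization (adjusted p = 0.0338). Without the PLX4720 24 h array (−0.54) it passed as well, and in the other alternatives it did not. LIF did not pass on its brighter row (adjusted p = 0.608). In the fit without a filter CXCL8 passed the F-test, with the change at 24 h at −0.58 relative to 2 h (adjusted p = 0.0444).

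**Figure D3:**
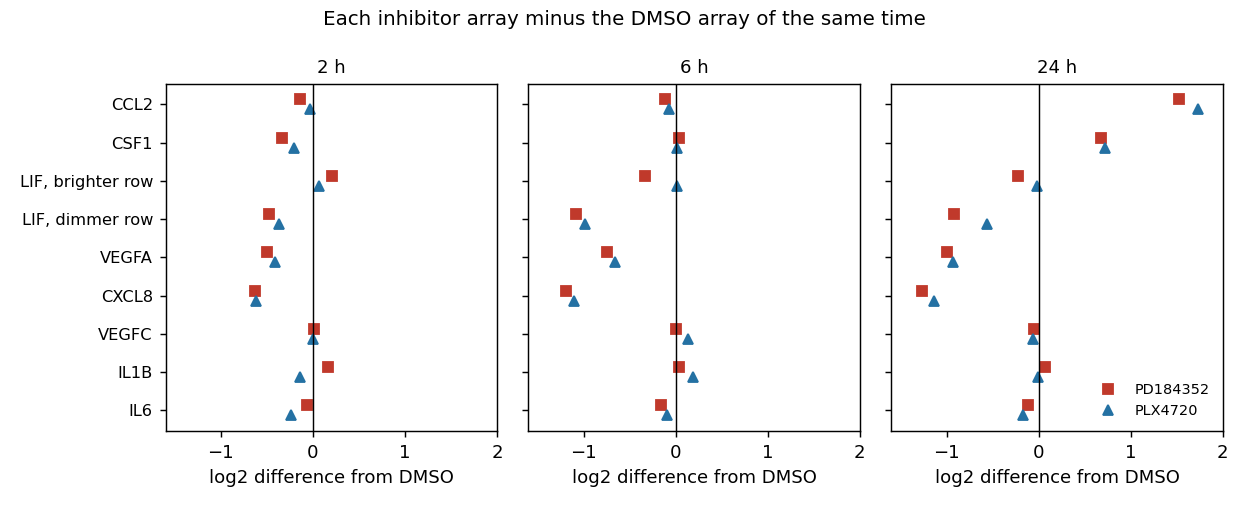
Each panel plots, for 1 time, the log2 difference of the PD184352 array (red squares) and of the PLX4720 array (blue triangles) from the DMSO array of that time, with no error since each point is 1 array against 1 array. CXCL8, VEGFA and the dimmer row of LIF are left of 0 at all times, and CCL2 moves from near 0 at 6 h to 1.52 and 1.73 at 24 h, measured against a DMSO array under the olfactory bound.

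Averaged over the 3 times with time as a block, VEGFA was at −0.71 (SE 0.09, adjusted p = 0.0614). It did not pass, in a fit that called 0.133% of genes, and passed without the DMSO 2 h array (−0.83, adjusted p = 0.00927) or the DMSO 24 h array (−0.58, adjusted p = 0.0136). Without any other array VEGFA did not pass, with the highest adjusted p, 0.382, without the DMSO 6 h array (−0.71). CCL2 was at 0.48 (SE 0.31), CSF1 at 0.15 (SE 0.16) and LIF at −0.05 (SE 0.09), none of which passed. Uneven changes over the times widen the SE of that fit.

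No gene of the list was called different between PD184352 and PLX4720, which were given at different doses. The difference over the 3 times, PD184352 minus PLX4720, was −0.12 for CCL2 (95% interval −0.99 to 0.75), −0.14 for LIF (−0.40 to 0.12), −0.05 for CSF1 (−0.50 to 0.40) and −0.08 for VEGFA (−0.33 to 0.17), with adjusted p = 1.00 for each. limma called 0 of 12785 genes in this comparison (0%), with 169 at an unadjusted p below 0.05. The intervals are wide for CCL2, so like action of both compounds is not shown. At 24 h the values of PD184352 and PLX4720 side by side were 1.52 and 1.73 for CCL2, 0.68 and 0.73 for CSF1, and −1.27 and −1.14 for CXCL8, with no test at a single time. For the dimmer LIF row they were −0.92 and −0.56.

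Lists of related genes are read against all genes tested, of which 19.2% were called lower and 12.5% higher at 24 h. Of 18 receptor genes for these factors, 12 were tested, and at 24 h 2 fell and 2 rose, with a median change of −0.01, as over all genes tested (−0.01). LIFR, the specific receptor chain for LIF, fell by 1.01 (SE 0.13, adjusted p = 0.000201), from 8.81 on the DMSO array to 7.78 with PD184352 and 7.83 with PLX4720. It had also fallen at 6 h, by 0.56 (SE 0.13, adjusted p = 0.0433). IL1RAP, the accessory chain of the IL1 receptor, fell by 0.71 at 6 h (SE 0.13, adjusted p = 0.0133) and by 0.57 at 24 h (SE 0.13, adjusted p = 0.00630). The VEGFA co-receptor NRP1 rose by 0.50 at 24 h (SE 0.10, adjusted p = 0.00266), and the VEGFA receptor FLT1 rose (0.45 as measured, SE 0.09, adjusted p = 0.00303). FLT1 was under the olfactory bound on all arrays except those with inhibitor at 24 h, so that it was, as measured, at least 1.09-fold higher there. KDR, the main signalling receptor for VEGFA, fell at 6 h (−0.52 as measured, SE 0.09, adjusted p = 0.0144), when both inhibitor arrays were under the bound (at least 1.20-fold lower), and was at 0.15 at 24 h, which did not pass. IL6ST, at 0.11, and CSF1R, the receptor for CSF1, at −0.04, did not pass at 24 h. CSF1R read 6.38 to 6.64 on all arrays, under the olfactory bound. Without the PD184352 6 h array, LIFR (adjusted p = 0.186), IL1RAP (adjusted p = 0.0818) and KDR (adjusted p = 0.0883) did not pass at 6 h. Without the PLX4720 6 h array, LIFR (adjusted p = 0.0502) and KDR (adjusted p = 0.0511) did not.

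Among 42 other cytokines and chemokines, 20 were tested, 16 lay below the filter and 6 had no row naming 1 gene. None fell and 3 rose at 24 h (15%, against 12.5% called higher over all genes tested), with a median change of 0.03. The growth factors TGFB1 (0.58, SE 0.16, adjusted p = 0.0187) and TGFB2 (0.33, SE 0.10, adjusted p = 0.0331) and the chemokine CXCL14 (0.33, SE 0.09, adjusted p = 0.0154) were the genes that rose. TGFB1 stood at 8.99 with PD184352 and 8.58 with PLX4720 at 24 h, against 8.21 on the DMSO array. TGFB2 did not pass without the PLX4720 24 h array (0.25, adjusted p = 0.141) or with 1 DMSO group (0.17, adjusted p = 0.181).

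Of 17 other vascular and growth factor genes 13 were tested, and at 24 h 4 fell and 4 rose, with a median of 0.17. Each direction held 30.8% of the genes tested in the list, against 19.2% called lower and 12.5% called higher over all genes tested. ANGPT1, a ligand that stabilises vessels, fell (−1.18 as measured, SE 0.11, adjusted p = 3.1e-05) to levels under the olfactory bound, at least 1.78-fold, and the vasodilator peptide gene ADM fell by 0.89 (SE 0.09, adjusted p = 3.8e-05). FGF1 rose (0.98 as measured, SE 0.09, adjusted p = 2.3e-05) and PDGFB rose by 0.44 (SE 0.09, adjusted p = 0.00297). FGF1 was under the olfactory bound on all DMSO arrays. As measured, it was at least 1.44-fold higher at 24 h and at least 1.06-fold higher at 6 h. ADM, ANGPT1 and FGF1 had already passed at 6 h, at −0.68 (adjusted p = 0.00233), −0.47 (adjusted p = 0.0458) and 0.56 (adjusted p = 0.00617). At 6 h ANGPT1 did not pass without any 1 of the inhibitor arrays of 2 h (adjusted p = 0.0594 for each) and 6 h (adjusted p = 0.0842 without PD184352 and 0.222 without PLX4720), and ADM did not with 1 DMSO group (−0.31, adjusted p = 0.371).

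All 17 NF-κB pathway genes with a row were tested, and 3 fell at 6 h and 6 at 24 h, while none rose at either time. The 3 genes at 6 h were 17.6% of the list, against 2.74% of all genes tested called lower at that time. The 6 genes were 35.3% of the list, against 31.6% of all genes tested called in either direction and 19.2% called lower. The median change at 24 h was −0.12. TNFAIP3, an inhibitor of the pathway that NF-κB itself induces, fell by 0.57 at 6 h (SE 0.10, adjusted p = 0.0118) and by 0.88 at 24 h (SE 0.10, adjusted p = 0.000106). The adhesion gene ICAM1 fell by 0.77 (SE 0.10, adjusted p = 0.00265) and 0.53 (SE 0.10, adjusted p = 0.00266) at these times. CEBPB, a C/EBP factor that acts on cytokine promoters and was counted in this list, fell by 0.38 (SE 0.09, adjusted p = 0.0444) and 0.50 (SE 0.09, adjusted p = 0.00137). IRAK1, a kinase below the IL1 receptor, fell by 0.36 at 24 h (SE 0.10, adjusted p = 0.0162). NFKBIA, another induced inhibitor, was at 0.20 and did not pass. At 6 h the call of CEBPB was lost without any 1 inhibitor array of 2 h (adjusted p = 0.0662 for each) or 6 h (0.106 without PD184352 and 0.218 without PLX4720), and that of TNFAIP3 without the PLX4720 6 h array (adjusted p = 0.0731). IRAK1 did not pass without the PD184352 24 h array (adjusted p = 0.0589).

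Of 7 AP-1 subunits, 1 fell and 3 rose at 24 h. FOSL1 fell at all 3 times, with changes of −0.73 (SE 0.10, adjusted p = 0.0268) at 2 h, −1.62 (SE 0.10, adjusted p = 2.0e-05) at 6 h and −1.15 (SE 0.10, adjusted p = 1.9e-05) at 24 h. JUN, at 2.29 (SE 0.12), FOSL2, at 1.66 (SE 0.14), and JUND, at 0.32 (SE 0.10), rose at 24 h, when 12.5% of all genes tested were called higher. FOSL1 at 2 h did not pass without the PD184352 (adjusted p = 0.325) or PLX4720 (adjusted p = 0.214) array of 2 h or of 6 h (adjusted p = 0.0575 for each), or with 1 DMSO group (−0.44, adjusted p = 0.349). JUND did not pass without the PLX4720 24 h array (adjusted p = 0.0771).

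A list of 9 genes covered proteins that act on cytokine mRNA, most of them by binding AU-rich elements, through which many cytokine transcripts are destabilised. At 24 h 4 fell and 1 rose, with a median of −0.25. These were 44.4% and 11.1% of the list, against 19.2% called lower and 12.5% called higher over all genes tested. The falls were in the stabilising factor ELAVL1 (−0.47, SE 0.09), in HNRNPD (−0.46, SE 0.09), in the decay factor KHSRP (−0.38, SE 0.10) and in ZFP36L2, another decay factor (−0.32, SE 0.08). ZFP36L2 had also passed at 6 h (−0.43, adjusted p = 0.0201), but not without the PD184352 (adjusted p = 0.0961) or the PLX4720 (adjusted p = 0.0963) array of that time, and at 24 h it did not pass without the PD184352 array (adjusted p = 0.0563). KHSRP did not pass with the mean of all its rows (−0.20, adjusted p = 0.111).

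Of 14 hypoxia response genes tested, a group to which VEGFA is also known to belong, 5 fell and 2 rose at 24 h, with a median of −0.17. Besides ADM, the kinase gene PDK1 (−0.63, SE 0.12) and the carbonic anhydrase gene CA12 (−0.60 as measured, SE 0.10) fell, CA12 to levels under the olfactory bound (at least 1.25-fold). EPAS1, which encodes the oxygen-regulated factor HIF-2α, rose by 1.39 (SE 0.10, adjusted p = 9.5e-06), from 7.67 on the DMSO array to 9.17 with PD184352 and 8.94 with PLX4720. HIF1A was at −0.15 and did not pass. Of 10 genes of the STAT3 and SOCS list, none fell and 2 rose (20%), SOCS2 by 0.33 (SE 0.09) and JAK1 by 0.25 (SE 0.09). SOCS2 did not pass without the PLX4720 24 h array (adjusted p = 0.0933), nor JAK1 without either inhibitor array of 6 h (adjusted p = 0.0724 for each) or 24 h (0.149 without PD184352 and 0.108 without PLX4720).

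**Figure D4:**
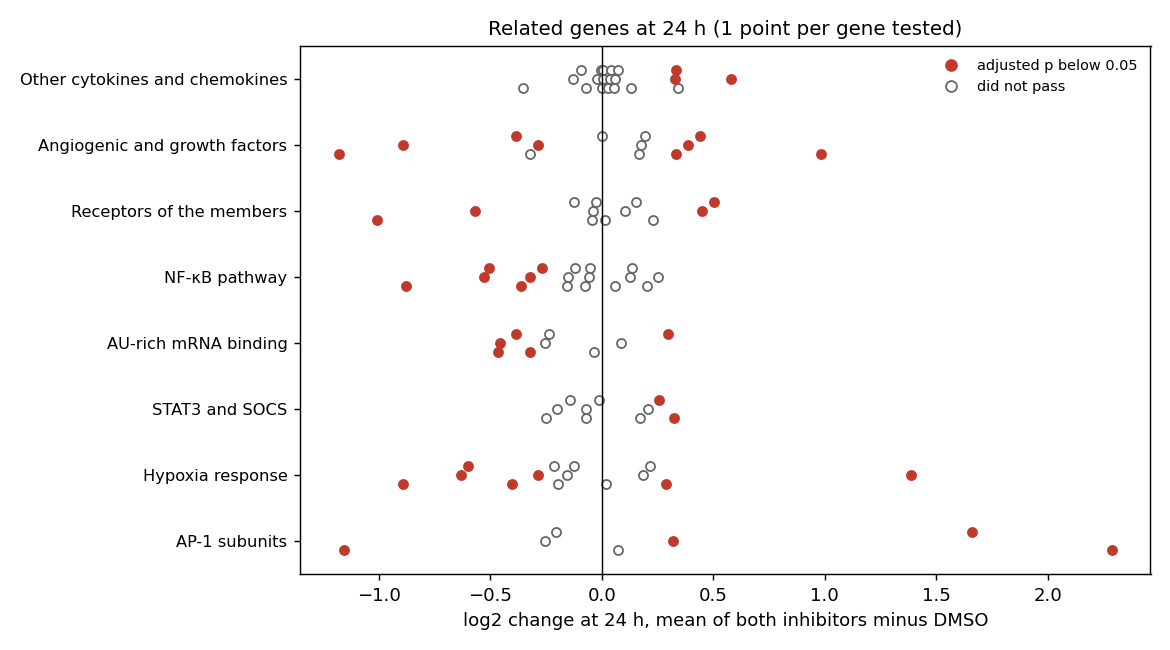
Each point is 1 gene tested, placed by its log2 change at 24 h (mean of both inhibitors minus DMSO) in 8 lists of related genes; filled points passed at an adjusted p below 0.05. NF-κB pathway genes that passed lie to the left of 0, and vascular factors, receptors and AP-1 subunits that passed lie on both sides.

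The genes whose levels ran closest to those of VEGFA over the 9 arrays were the phosphodiesterase gene PDE4B (r = 0.99), the polyamine enzyme gene SAT1 (r = 0.98) and the Notch pathway factor RBPJ (r = 0.98). Their changes at 24 h were −0.84, −0.97 and −0.27, with PDE4B under the olfactory bound on all arrays. Closest to CCL2 were MZF1-AS1 (r = 0.99), the matricellular gene CCN3 (r = 0.98) and EXOSC10 (r = 0.98), at 0.42, 2.35 and 0.48. CSF1 also ran with CCL2 (r = 0.94). These values are descriptions over 9 arrays that share treatments and controls.

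The melanocyte markers with a row (6 of 8 listed) all reached the olfactory bound on at least 1 array, among them PMEL, SOX10 and MLANA. Of 7 leukocyte markers with a row, PTPRC, CD3E, CD163 and LYZ stayed under that bound, and CD14, MS4A1 and CD68 passed it on at least 1 array. Of 5 melanocyte markers tested, 4 rose at 24 h, with a median of 0.51, when 12.5% of all genes tested were called higher. S100B rose by 0.84, MLANA by 0.67 as measured against a DMSO array under the bound, SOX10 by 0.51 and PMEL by 0.44. The summed level of the melanocyte list was 49.97 to 50.72 with DMSO, 49.4 to 55.2 with PD184352 and 50.3 to 54.7 with PLX4720, and its part in the results was not tested. The summed level of the leukocyte list was 42.8 to 43.8 with DMSO, 43.7 to 44.0 with PD184352 and 42.9 to 43.7 with PLX4720. CD68, a lysosomal gene that tumour cells also express, rose by 0.73 at 24 h (SE 0.10). Of 5 endothelial markers VWF passed the bound on at least 1 array, and PECAM1, CDH5, TEK and ERG stayed under it. Of 5 fibroblast markers COL1A1 and PDGFRB passed it, and COL1A2, DCN and LUM stayed under it. The endothelial list summed to 30.5 to 30.7 with DMSO, 30.1 to 30.5 with PD184352 and 30.3 to 31.4 with PLX4720, and the fibroblast list to 30.8 to 31.3, 31.4 to 31.9 and 31.3 to 31.9.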

How the data were processed

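Expression was measured on 9 columns of a gene-level exon array. The authors deposited linear intensities, already normalized. RMA, limma and R 2.8.0 stand in the submitters' processing notes, their role unstated, and no source used here gives a genome build. The platform table gave exactly 1 symbol for 19380 of 35446 rows, several for 3339 and none for 12727. For each gene the row with the highest mean log2(value + 1) was used, and the 25% of genes with the lowest means were left out, leaving 12785.

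limma 3.58.1 (R 4.3.3) was used for every test, with p-values adjusted by Benjamini-Hochberg over all genes tested and a threshold of 0.05. The per-time fit had DMSO and either inhibitor at each time (residual degrees of freedom 3). The fit with treatment and time as a block had 4. Both were tested on simulated data. Alternatives were no filter or a filter at 50%, a pseudocount of 16, quantile normalization, the mean of all rows of a gene, 1 DMSO group, the 6 inhibitor arrays alone and each array left out. The other LIF row, and DMSO arrays left out of the 1 DMSO group, were added after seeing the data. Standard errors are moderated. The number of arrays limits the precision. No pair of columns was identical (0 pairs).

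The list, the related gene lists and the tests were chosen with earlier results of these data known. Named genes were all listed members, up to 4 called genes of each related list by size of change at 24 h, and the 3 genes most like each readable member that ranged over at least 1 log2 unit. KDR, IL6ST, CSF1R, NFKBIA and HIF1A, the CSF1 correlation and the named markers were added after their values were seen. Promoter windows came from RefSeq, for 6 of the 10 genes.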

Additional observations from a re-analysis of the deposited data

Results flagged for a closer look

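The change of CCL2 with inhibitor differed between the times by limma's F-test (adjusted p = 0.000212), from −0.08 at 2 h and −0.09 at 6 h to 1.63 at 24 h, as measured against DMSO arrays under the olfactory bound. The change of CSF1 differed between the times as well (adjusted p = 0.00187), from −0.27 at 2 h to 0.70 at 24 h. On its brighter row, LIF was above DMSO with both compounds at 2 h (mean change 0.13) and below it with both at 24 h (−0.12). The pair of LIF values was singled out by sign alone, that contrast of signs was not tested, and the F-test over all 3 times did not pass (adjusted p = 0.608).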

How the results depend on the processing

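Alternatives left 329 of 354 values of CCL2, CSF1, VEGFA and LIF with the same direction and side of the threshold, 13 newly passed and 12 turned sign. The calls of CCL2 and CSF1 at 24 h and of VEGFA at 6 h and 24 h held in every alternative in which they could be fitted, those that could not alter them included. Without the DMSO array of a time that change could not be fitted.

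The count of listed genes called at 2 h (0) was 1 with a pseudocount of 16, with the mean of all rows and with 1 DMSO group, and 0 to 1 when 1 array was left out. With a pseudocount of 16 and with the mean of all rows 5 genes were tested, and the gene called at 2 h was not CCL2, CSF1, VEGFA or LIF. At 6 h (1) it was 2 with no filter, a pseudocount of 16 or the other LIF row and 3 with the mean of all rows, and stayed at 1 when 1 array was left out. At 24 h (3) it ran from 2 to 5, with 5 for the mean of all rows, where 5 genes were tested, and stayed at 3 when 1 array was left out. The filter at 50% left CCL2 out of the tests, and CSF1 and VEGFA passed there. With no filter CXCL8 passed too. For the difference between times (2) it ran from 2 to 4, with 4 for a pseudocount of 16, and from 2 to 3 when 1 array was left out. For the mean over the times (0) it was 1 with a pseudocount of 16 or the mean of all rows, and 0 to 1 when 1 array was left out. Between compounds it was 0 throughout.

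Values that turned sign were those that had not passed. LIF at 2 h was −0.14 with the mean of all rows and −0.42 on its other row. When 1 array was left out, LIF at 6 h ranged from −0.33 to 0.018 (without PD184352 6 h) and over the times from −0.14 to 0.0073 (without DMSO 6 h), with 0.0061 without PD184352 6 h. CCL2 at 6 h was 0.15 with 1 DMSO group. Over the times, CCL2 ranged from −0.088 (without DMSO 24 h) to 0.77 and CSF1 from −0.12 (without DMSO 24 h) to 0.36. Between compounds CCL2 ranged from −0.37 to 0.20 (without PLX4720 24 h), with 0.017 without PD184352 2 h. CSF1 ranged from −0.19 to 0.082 (without PD184352 2 h), with 0.081 without PLX4720 24 h. With the mean of all rows LIF passed at 6 h (−0.59) and 24 h (−0.43). The cause was not tested. Of 40 calls of related genes named, 24 held in every alternative and 0 turned sign. Calls were lost without the filter for FOSL1 at 2 h, ANGPT1, CEBPB and LIFR at 6 h, and JAK1, JUND and TGFB2 at 24 h, and with quantile normalization for FOSL1 at 2 h, ANGPT1, CEBPB, IL1RAP, LIFR and ZFP36L2 at 6 h, and ZFP36L2 at 24 h. With 1 DMSO group they were lost for FOSL1 at 2 h, ANGPT1, LIFR and ADM at 6 h, and TGFB2 at 24 h. Over all genes, the 11 calls at 2 h became 1 with no filter, 33 with the stricter filter, 23 with a pseudocount of 16, 0 after quantile normalization, 31 with 1 DMSO group, and 0 to 95 without 1 array. The 420 calls at 6 h became 253 with no filter and 205 to 801 without 1 array. The 17 calls over the times became 0 after quantile normalization and 0 to 545 without 1 array. No paired analysis was possible because the labels give no replicate numbers and each group holds 1 column, although time entered as a block in the fit of the mean over the times.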
